A study of Homo sapiens with 6 samples.

Results

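Solute carriers are membrane proteins that move sugars, amino acids, ions, vitamins and metabolites across the plasma membrane and the membranes of organelles. The genes described here are the solute carriers expressed in HEK293T cells, leaving out the mitochondrial SLC25 carriers and 10 amino acid transporters (SLC7A1, SLC7A2, SLC7A5, SLC7A11, SLC3A2, SLC1A4, SLC1A5, SLC38A1, SLC38A2 and SLC36A1). They were taken by symbol, as protein-coding genes named SLC with a family number, the letter A and a member number, or SLCO, with a mean of at least 1 CPM, the count scaled by library size, over the 6 libraries. The rule found 173 genes of 44 families among 60179 gene features, out of 298 such names at any level. Since it reads only the start of a symbol, 4 members are not carriers: SLC4A1AP, SLC7A6OS, SLC2A4RG and SLC26A10P, named as a pseudogene. The other 169 are. The letter A in the rule leaves out SLC35 and other families' members of other subfamily letters, such as SLC35B1. The mean level is the only measurement in the rule, but the rule was set with earlier results of these data known.

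HEK293T cells descend from human embryonic kidney and express SV40 large T antigen. All groups were co-transfected with the plasmids pShP2419 and pStH1169 for human TET2 that light can activate (TET2 oxidises the methyl group of methylated cytosine in DNA), and all were grown for 48 h with the caged amino acid 4,5-dimethoxy-2-nitrobenzyl-L-serine at 0.1 mM. They were washed, and 2 of the 3 groups were put on a 365 nm transilluminator for 3 min and returned to growth medium. For each library 500000 transfected cells were sorted and their mRNA was sequenced, in 2 libraries for each of 3 groups: caged 0 h (no light), uncaged 4 h and uncaged 8 h (4 h and 8 h after light). Every group carried the plasmids and the caged amino acid. No group had light without the enzyme, so the enzyme's activity cannot be told apart from light, the wash, new medium or hours passed. Nothing in the labels says that replicates came from separate cultures, so p-values measure only how far these libraries lie apart, a spread that may be technical. In bulk libraries, fewer cells with a transcript and less transcript per cell cannot be told apart.

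Solute carriers work without their own ATPase. Uniporters such as the GLUT hexose carriers (SLC2) let a solute run down its gradient, symporters such as SLC5, SLC6 and SLC20 couple uptake to sodium, and exchangers such as SLC9 and SLC4 trade an ion for another. The gradients come from the sodium pump at the cell surface and the vacuolar proton pump in endosomes and lysosomes. Zinc shows the logic of paired families: SLC39 (ZIP) proteins bring zinc into the cytosol and SLC30 (ZnT) proteins take it out. Kidney tubule cells are known for a broad set of carriers for sugars, phosphate, organic ions and bicarbonate.

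The libraries held 14903812 to 17670499 estimated counts on gene features, so that 3 counts, the most that a count of 0 allows, came to 0.170 to 0.201 CPM (counting error only). Plasmid sequences took 11.5% to 11.8% of all estimated counts in the caged libraries and 14.8% to 15.5% after light; they were left out of the library sizes, and their part in the results below was not tested. Of the markers of HEK293 cells, VIM had a median of 480.7 CPM, KRT18 38.4 CPM, KRT8 7.15 CPM, NEFM 6.02 CPM and PAX2 4.90 CPM. Of the defining markers of other cell types, PTPRC, HBB and COL1A2 had a median of 0 (COL1A2 up to 1.12 CPM), PECAM1 0.175 CPM and ALB 1.61 CPM. Levels below are normalised counts (CPM on TMM-scaled library sizes), changes are log2 fold changes ± SE from 2 libraries a group, and a gene is called where its adjusted p is under 0.05.

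The most abundant members per length were zinc carriers. On the scale of CPM per kb of annotated exon, averaged over the 6 libraries, SLC39A7 (51.0 CPM per kb), the zinc carrier of the endoplasmic reticulum, stood first. It was followed by SLC39A1 (44.8 CPM per kb), which imports zinc at the surface, SLC30A1 (38.0 CPM per kb), which exports it there, and the creatine carrier SLC6A8 (31.0 CPM per kb). Next came the phosphate carrier SLC20A1 (29.6 CPM per kb), the monocarboxylate carrier SLC16A1 (27.8 CPM per kb), which moves lactate, the chloride-bicarbonate exchanger SLC4A2 (26.2 CPM per kb) and the zinc importer SLC39A6 (22.6 CPM per kb). None of these 8 was called at 8 h except SLC16A1. SLC39A7 stood at 0.17 ± 0.059 (adjusted p = 0.0681), SLC39A1 at -0.13 ± 0.051 (adjusted p = 0.0981), SLC30A1 at 0.036 ± 0.075 (adjusted p = 0.749) and SLC39A6 at -0.11 ± 0.077 (adjusted p = 0.3002). SLC6A8 stood at 0.12 ± 0.054 (adjusted p = 0.126), SLC20A1 at 0.086 ± 0.052 (adjusted p = 0.250) and SLC4A2 at -0.094 ± 0.062 (adjusted p = 0.288). At the threshold, the lowest members were SLC24A4, SLC6A11 and SLC22A4 with means of 1.09, 1.104 and 1.12 CPM, and SLCO6A1, SLC6A20 and SLC7A9 just missed it with 0.970, 0.931 and 0.882 CPM. Of the 298 names, 125 lay below 1 CPM and 22 were listed at 0 in all 6 libraries. All 173 members passed the low-count filter and were tested.

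The comparison of uncaged 4 h with caged 0 h asks how carrier mRNA stood 4 h after TET2 was released by light. Few members were called. The phosphate importer SLC20A2, SLC35A4 of the nucleotide sugar family, the chloride carriers SLC12A2 and SLC12A4, SLC16A1 and the zinc carrier SLC39A9 rose. The lysosomal sialic acid exporter SLC17A5, the monocarboxylate family members SLC16A13 and SLC16A9 and 7 others fell. Of 173 members, 6 (3.47%) were called higher and 10 (5.78%) lower, against 6.16% higher and 3.56% lower of the 17449 features tested and 7.33% and 4.06% of the 13194 protein-coding genes of at least 1 CPM. The members' median log2 fold change was -0.079, beside -0.0062 for those protein-coding genes. No called change of a member passed 2-fold, beside 210 of the 17449 features tested and 100 of the 13194 protein-coding genes. The median of the members was -0.039 under cyclic loess offsets and -0.13 with library totals alone. The shares of called members lie near the background. Of the calls, 37.5% were in the higher direction, but 21.1% with library totals alone (4 higher, 15 lower) and 62.5% with DESeq2 (5 higher, 3 lower).

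Among the carriers that rose at 4 h, SLC20A2, a sodium-phosphate symporter, had 26.4 and 24.3 CPM in the caged libraries, 37.2 and 38.8 CPM at 4 h and 31.9 and 32.0 CPM at 8 h. Both libraries at each time after light lay above both caged ones, and those at 4 h were the highest. It rose by 0.58 ± 0.076 (adjusted p = 0.00458) at 4 h and by 0.33 ± 0.077 (adjusted p = 0.0149) by 8 h. SLC12A4, the potassium-chloride cotransporter KCC1 (chromosome 16, 67943474 to 67969601 of GRCh38, 1-based in GENCODE 29), had 151 and 143 CPM in the caged libraries, 178 and 181 CPM at 4 h and 193 and 188 CPM at 8 h. Its groups did not overlap, and it rose by 0.29 ± 0.053 (adjusted p = 0.0151) at 4 h and by 0.37 ± 0.053 (adjusted p = 0.00231) by 8 h. SLC12A2, the sodium-potassium-chloride cotransporter NKCC1, had 31.8 and 33.0 CPM in the caged libraries, 41.3 and 39.8 CPM at 4 h and 33.8 and 37.9 CPM at 8 h, with the 4 h libraries highest. It rose by 0.32 ± 0.079 (adjusted p = 0.0391) at 4 h but stood at 0.15 ± 0.08 (adjusted p = 0.203) by 8 h. SLC35A4 had 70.4 and 66.0 CPM in the caged libraries, 85.5 and 93.2 CPM at 4 h and 89.2 and 86.9 CPM at 8 h, and every library after light lay above the caged ones. It rose by 0.39 ± 0.069 (adjusted p = 0.0131) at 4 h and by 0.37 ± 0.069 (adjusted p = 0.00652) by 8 h. SLC16A1, the lactate carrier MCT1, rose by 0.29 ± 0.064 (adjusted p = 0.0302) and SLC39A9 rose by 0.28 ± 0.057 (adjusted p = 0.0208) at 4 h, both from levels near 130.4 and 95.0 CPM in caged cells. The estimates of SLC20A2, SLC12A4 and SLC39A9 were not whole numbers in all 6 libraries, as happens where reads are shared with other transcripts.

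Among those that fell at 4 h, SLC17A5 had 24.6 and 24.1 CPM in the caged libraries, 15.8 and 15.8 CPM at 4 h and 18.3 and 16.5 CPM at 8 h. Both times after light lay below the caged libraries, with the lowest values at 4 h. It fell by 0.62 ± 0.09 (adjusted p = 0.00642) at 4 h. SLC16A13 fell by 0.95 ± 0.22 (adjusted p = 0.0331), SLC16A9, a carnitine carrier, fell by 0.76 ± 0.19 (adjusted p = 0.0418), and the zinc carriers SLC30A4 and SLC39A10 stood at -0.55 ± 0.11 (adjusted p = 0.0220) and -0.47 ± 0.12 (adjusted p = 0.0426). SLC22A23, of the organic ion family, was at -0.47 ± 0.12 (adjusted p = 0.0418), the nucleoside carrier SLC29A2 at -0.44 ± 0.10 (adjusted p = 0.0292) and the endosomal sodium-proton exchanger SLC9A7 at -0.42 ± 0.10 (adjusted p = 0.0399). The thiamine carrier SLC19A2 was at -0.38 ± 0.073 (adjusted p = 0.0181) and SLC50A1, of the SWEET sugar family, at -0.27 ± 0.062 (adjusted p = 0.0346).

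No call at 4 h held in all 6 fits that left out 1 library. Each fit without 1 of the 4 libraries compared also called smaller shares of all features, in both directions, than the fit with all 6. SLC20A2 and SLC17A5 lost the call without 4 h replicate 2, and SLC35A4 without caged replicate 2 or 4 h replicate 2. SLC12A2, SLC39A9, SLC16A13, SLC16A9, SLC30A4, SLC39A10, SLC22A23, SLC29A2, SLC9A7, SLC19A2 and SLC50A1 lost it without any 1 of the 4 libraries compared, and SLC12A4 without caged replicate 2 or either 4 h library. SLC16A1 lost it without either caged library or 4 h replicate 2. SLC12A2 and SLC16A1 were not called with library totals alone, nor were SLC12A2, SLC16A13, SLC16A9, SLC30A4, SLC39A10, SLC22A23, SLC9A7 and SLC50A1 with DESeq2. SLC12A2, SLC12A4, SLC16A1, SLC39A9, SLC16A13, SLC16A9, SLC39A10, SLC22A23, SLC29A2, SLC9A7 and SLC50A1 were not called without a low-count filter, nor were SLC12A2, SLC16A13, SLC16A9, SLC39A10, SLC22A23, SLC9A7 and SLC50A1 with the replicate block. SLC12A4, SLC16A1, SLC39A9, SLC16A9, SLC30A4, SLC39A10, SLC22A23, SLC29A2 and SLC9A7 were not called under cyclic loess offsets. Without caged replicate 1, caged replicate 2, 4 h replicate 1 and 4 h replicate 2 the counts were 4, 1, 3 and 0 higher and 1, 1, 1 and 0 lower; in the last fit of edgeR, 9 and 26 members had an unadjusted p under 0.05.

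By 8 h after light, expressed solute carriers stood lower far more often than higher. The glucose carrier gene SLC2A12 fell 3.16-fold, and SLC16A13, the sodium-calcium exchanger gene SLC8A1, the organic ion carriers SLC22A15 and SLCO4C1 and the hexose carrier SLC2A10 fell over 2-fold. SLC12A4, SLC35A4, SLC20A2, SLC39A9, SLC16A1 and 3 others rose. Of 173 members, 8 (4.62%) were called higher and 56 (32.4%) lower. The background was 14.9% higher and 13.2% lower of all features tested, and 17.2% and 16.3% of the protein-coding genes of at least 1 CPM. The members' median log2 fold change was -0.25 with quartiles of -0.45 and 0.0025, beside a median of -0.021 with quartiles of -0.26 and 0.19 for those protein-coding genes. In all, 128 of the 173 values were negative. All 64 calls had groups that did not overlap, which was not counted over all features. The calls rest on the same libraries, so this is no separate support for them. Of the 173 members, 6 were called with a change over 2-fold, beside 577 of the 17449 features tested and 321 of the 13194 protein-coding genes. The median called change was 1.39-fold. Without the 4 members that are not carriers, 7 were higher and 55 lower of 169.

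**Figure D1:**
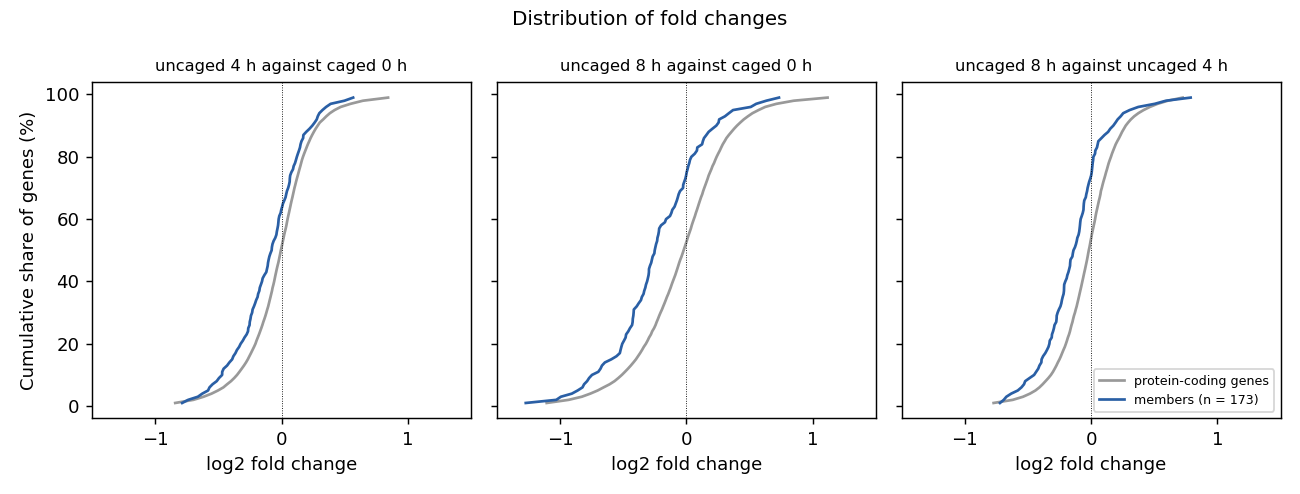
Cumulative share of genes (y axis, %) against log2 fold change (x axis) in the 3 comparisons, for the 173 members and for the 13194 protein-coding genes with a mean of at least 1 CPM, drawn from the 1st to the 99th percentile. The members' curve lies to the left of the other at 8 h against caged 0 h, where the medians were -0.25 and -0.021.

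The count of 56 rests on both groups' libraries. It was 28 without caged replicate 1, 30 without caged replicate 2, 36 without 8 h replicate 1 and 26 without 8 h replicate 2, where 4.97%, 6.69%, 7.496% and 7.45% of all features were called lower. With cyclic loess offsets, which level each library against abundance, 36 members were lower and 10 higher beside 10.3% and 12.1% of all features, and with DESeq2 28 were lower and 7 higher beside 7.09% and 12.3%. With library totals alone the median of all features shifted to -0.11, the members' median was -0.35, and 77 members were lower and 4 higher beside 22.3% and 9.14%. In 24 members, 21 lower and 3 higher, the call held with each library left out in turn. The matching share over all features was not counted, so whether it differs from the members' was not tested.

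TET enzymes act on methylated CpG sites, so the promoters of the members were described by their CpG content. RefSeq gives a window of 300 bases, 250 before to 50 after the gene start, for 136 of the 173 members (build GRCh38.p14). That start lies within 100 bases of the GENCODE 29 gene start in 70 of them, over 100 bases inside the GENCODE gene in 59 and over 100 bases outside it in 7, so the window is not always the outermost promoter. The members called lower at 8 h had a median of 26.5 CpG in that window (46 promoters), those called higher 21.5 (6 promoters) and those not called 26 (84 promoters). Among protein-coding genes of at least 1 CPM the medians were 28, 25 and 27 in the same order. To show the range of CpG density among members that fell and rose, the 100 bases before the RefSeq start are printed for 4 called members where they hold no GENCODE 29 exon, 5′ to 3′ on the gene's strand, with each CpG in capitals: SLC8A1 (chr2:40512436-40512535, minus strand), SLC27A2 (chr15:50182096-50182195, plus strand) and SLC46A3 (chr13:28718971-28719070, minus strand), which fell, and SLC12A4 (chr16:67968695-67968794, minus strand), which rose. In SLC27A2 and SLC46A3 the RefSeq and GENCODE starts are the same base, whereas the RefSeq start lies 98.6 kb inside the GENCODE gene in SLC8A1 and 907 bases inside it in SLC12A4.
SLC8A1: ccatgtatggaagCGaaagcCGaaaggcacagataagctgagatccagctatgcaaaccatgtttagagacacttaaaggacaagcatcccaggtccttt
SLC27A2: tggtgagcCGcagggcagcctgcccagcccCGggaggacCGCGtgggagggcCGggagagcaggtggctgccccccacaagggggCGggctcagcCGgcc
SLC46A3: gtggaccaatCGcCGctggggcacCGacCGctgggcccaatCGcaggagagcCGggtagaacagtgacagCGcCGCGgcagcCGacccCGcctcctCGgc
SLC12A4: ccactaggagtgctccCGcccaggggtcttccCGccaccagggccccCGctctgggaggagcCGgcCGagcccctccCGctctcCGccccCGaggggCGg

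The stretches shown hold 2 CpG in SLC8A1, 7 in SLC27A2, 12 in SLC46A3 and 9 in SLC12A4, and their 300-base windows 4, 23, 31 and 25. Methylation was not measured in these libraries. On either strand of the window, the GC box GGGCGG was in 68.4% of members' promoters and 44.6% of all 27305 promoters of that length, the E-box CACGTG in 10.3% and 7.43%, TATAAA in 3.68% and 12.0% and the metal response core TGCACNC in 12.5% and 11.9%. A GC box was in 73.9% of the 46 promoters of members called lower at 8 h, 67.9% of the 84 not called and 2 of the 6 called higher. These are matches of letters only. The 27305 promoters are not limited to expressed protein-coding genes as the members are, and motifs were not counted in such a matched set. In the 10625 promoters of protein-coding genes of at least 1 CPM the median GC content was 65.7%, beside 66.7% in the members' promoters. Whether the motif shares are particular to the members was not tested.

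**Figure D2:**
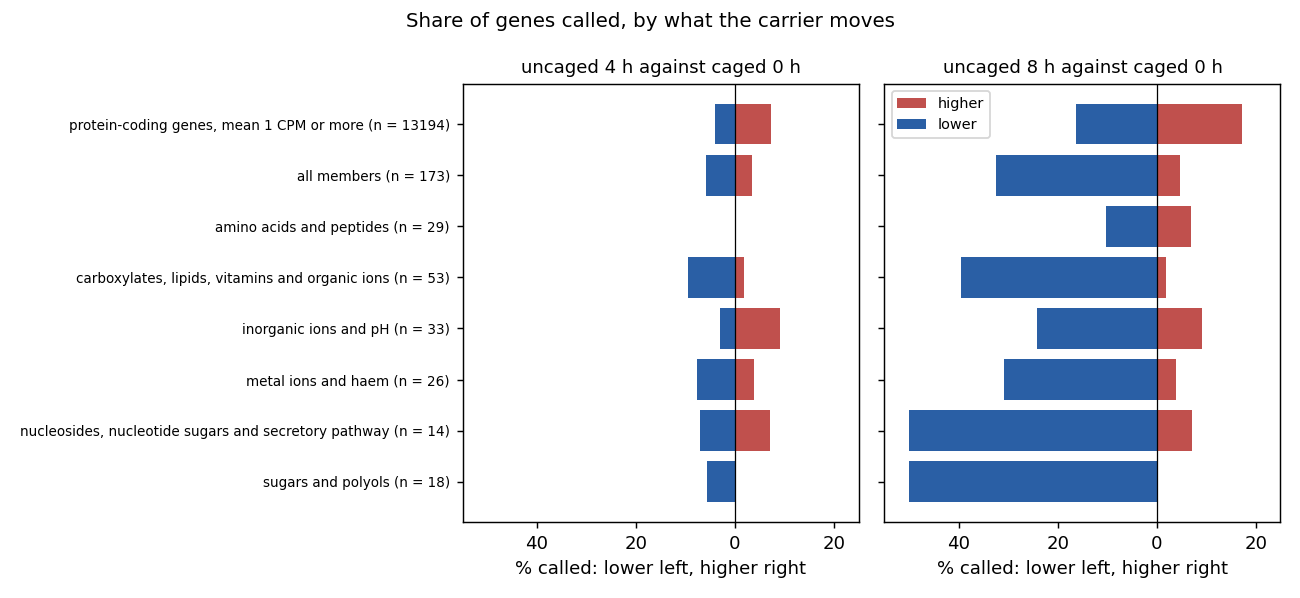
Share of genes called lower (bars to the left) or higher (bars to the right), in % of the genes of each row, at 4 h and 8 h against caged 0 h. The top row is the protein-coding genes of at least 1 CPM. The others are all members and the members grouped by what their family mainly moves, with n beside each name. The groups include the members that are not carriers. At 8 h, beside 16.3% of the protein-coding genes, the share called lower runs from 10.3% in the amino acid and peptide families to 50% in 2 groups. These are the sugar and polyol families and the nucleoside and secretory pathway carriers.

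Among the sugar and polyol families calls went in the lower direction alone. Members were grouped by family, so genes that are not sugar or polyol carriers are counted here. SLC2A4RG and the biotin and pantothenate carrier gene SLC5A6 are among them. Of the 18 genes of these families at 8 h, 0 were called higher and 9 lower (50%), with a median log2 fold change of -0.36. At 4 h 0 were higher and 1 lower (5.56%). Of all features, 14.9% were higher and 13.2% lower at 8 h, and 6.16% and 3.56% at 4 h. In the higher direction, edgeR, DESeq2 and limma-voom each called 0 at both times, with 0 at an unadjusted p under 0.05. SLC2A12 (chromosome 6, 133988697 to 134052636), which encodes the hexose carrier GLUT12, had 9.28 and 8.32 CPM in the caged libraries, 7.76 and 5.43 CPM at 4 h and 2.70 and 2.87 CPM at 8 h. The caged libraries were highest, 1 of the 4 h libraries came close to them, and both 8 h libraries were far below all others. It fell by 1.66 ± 0.21 (adjusted p = 0.00145) at 8 h, after -0.42 ± 0.18 (adjusted p = 0.193) at 4 h. Of the 10 genes named SLC2, 7 were called lower at 8 h with a family median of -0.46. The others of the family that fell were SLC2A10, the high-affinity glucose carrier gene SLC2A3, SLC2A11, the proton-inositol symporter gene SLC2A13, SLC2A6 and SLC2A4RG, which encodes a transcription factor and not a carrier.

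SLC2A10 was scarce, with 2.68 and 2.99 CPM in the caged libraries, 1.71 and 2.39 CPM at 4 h and 1.18 and 1.61 CPM at 8 h, and fell by 1.02 ± 0.30 (adjusted p = 0.0339). SLC2A3 fell by 0.65 ± 0.17 (adjusted p = 0.0243), SLC2A11 fell by 0.52 ± 0.13 (adjusted p = 0.0209), SLC2A13 fell by 0.34 ± 0.093 (adjusted p = 0.0282) and SLC2A6 fell by 0.39 ± 0.11 (adjusted p = 0.0344). SLC2A1, the gene of the widespread glucose carrier GLUT1, was not among them: it had 31.8 and 30.4 CPM in the caged libraries, 35.5 and 33.3 CPM at 4 h and 32.6 and 35.3 CPM at 8 h, with caged and 8 h libraries close together, and stood at 0.13 ± 0.078 (adjusted p = 0.255). SLC45A3 fell by 0.80 ± 0.13 (adjusted p = 0.00352) and SLC50A1 fell by 0.22 ± 0.063 (adjusted p = 0.0343). Among the sodium-coupled SLC5 members none of 5 was called by edgeR, DESeq2 or limma-voom, with 0 at an unadjusted p under 0.05; the inositol carrier gene SLC5A3, whose locus overlaps MRPS6, stood at -0.22 ± 0.10 (adjusted p = 0.145) and the biotin and pantothenate carrier gene SLC5A6 at 0.14 ± 0.09 (adjusted p = 0.275). SLC2A12 and SLC45A3 kept the call whichever library was left out. SLC2A10 and SLC2A13 lost it without any 1 of the 4 libraries compared, and SLC2A3 without caged replicate 1 or either 8 h library. SLC2A11 and SLC2A4RG lost it without either caged library or 8 h replicate 2, and SLC2A6 without any 1 of the 4 libraries compared or 4 h replicate 2. SLC50A1 lost it without any 1 of the 6 libraries. SLC2A10, SLC2A3, SLC2A11, SLC2A13, SLC2A6, SLC50A1 and SLC2A4RG were not called with DESeq2, nor were SLC2A10 and SLC2A6 without a low-count filter. SLC2A3, SLC2A11, SLC2A13, SLC2A6, SLC50A1 and SLC2A4RG were not called under cyclic loess offsets, nor was SLC50A1 with the replicate block.

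Of the 53 carriers of carboxylates, lipids, vitamins and organic ions at 8 h, 1 was called higher (1.89%) and 21 lower (39.6%), with a median log2 fold change of -0.42. At 4 h 1 was higher (1.89%) and 5 lower (9.43%). Of all features, 14.9% were higher and 13.2% lower at 8 h, and 6.16% and 3.56% at 4 h. The monocarboxylate family SLC16 held both directions: 4 of 11 fell and 1 rose, with a family median of -0.52. SLC16A13 (chromosome 17, 7036075 to 7040121) had 5.90 and 4.44 CPM in the caged libraries, 2.56 and 2.78 CPM at 4 h and 1.87 and 2.03 CPM at 8 h. Its groups followed each other without overlap, caged highest and 8 h lowest, and it fell by 1.40 ± 0.23 (adjusted p = 0.00389) at 8 h. SLC16A6 fell by 0.89 ± 0.23 (adjusted p = 0.0212) and SLC16A7, the carrier MCT2 for lactate and pyruvate, fell by 0.76 ± 0.22 (adjusted p = 0.0355). Against these, SLC16A1 had 129 and 132 CPM in the caged libraries, 150.2 and 168 CPM at 4 h and 155 and 154 CPM at 8 h, and it rose by 0.24 ± 0.064 (adjusted p = 0.0240). The family thus held the lactate carriers MCT1, abundant and higher after light, and MCT2, scarce and lower. SLC17A5 fell by 0.48 ± 0.089 (adjusted p = 0.00620) and the thiamine carrier gene SLC19A2, at 39.9 and 40.6 CPM in the caged libraries, 29.9 and 31.9 CPM at 4 h and 28.7 and 27.1 CPM at 8 h, fell by 0.53 ± 0.075 (adjusted p = 0.00230). SLC16A13, SLC17A5 and SLC19A2 kept the call whichever library was left out. SLC16A6 and SLC16A7 lost it without caged replicate 2 or either 8 h library, and SLC16A1 without any 1 of the 4 libraries compared. SLC16A6 and SLC16A7 were not called with DESeq2, nor were SLC16A7 and SLC16A1 under cyclic loess offsets. SLC16A7 and SLC16A1 were not called without a low-count filter, nor was SLC16A7 with the replicate block. SLC16A1 was not called with library totals alone.

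Of the SLC22 family of organic cation, anion and carnitine carriers, 4 of 9 (44.4%) fell and 0 rose at 8 h in edgeR. Of all features, 13.2% were lower and 14.9% higher. DESeq2, limma-voom and an unadjusted p under 0.05 in edgeR also gave 0 higher. SLC22A15 had 9.55 and 12.9 CPM in the caged libraries, 7.76 and 7.95 CPM at 4 h and 5.53 and 5.39 CPM at 8 h and fell by 1.04 ± 0.17 (adjusted p = 0.00384). The caged libraries were highest and differed most from each other, and the 8 h libraries were lowest. SLC22A23 fell by 0.78 ± 0.12 (adjusted p = 0.00321) and the carnitine carrier gene SLC22A5 fell by 0.42 ± 0.10 (adjusted p = 0.0144). SLCO4C1, an organic anion carrier of the kidney tubule, had 6.22 and 4.66 CPM in the caged libraries, 4.80 and 3.64 CPM at 4 h and 3.32 and 2.10 CPM at 8 h and fell by 1.003 ± 0.27 (adjusted p = 0.0264). The fatty acid carrier and acyl-CoA synthetase genes SLC27A2 and SLC27A1 stood at -0.84 ± 0.17 (adjusted p = 0.00936) and -0.76 ± 0.17 (adjusted p = 0.0137). The choline carrier genes SLC44A1 and SLC44A2 were at -0.48 ± 0.077 (adjusted p = 0.00361) and -0.36 ± 0.066 (adjusted p = 0.00570), whereas SLC44A5, about as abundant per length as SLC44A2 (11.1 and 12.0 CPM per kb), was at -0.084 ± 0.059 (adjusted p = 0.324). SLC46A3, a lysosomal carrier, fell by 0.81 ± 0.15 (adjusted p = 0.00649) and the ascorbate carrier gene SLC23A2 fell by 0.30 ± 0.069 (adjusted p = 0.0154). SLC22A15, SLC22A23, SLC27A2, SLC44A1, SLC44A2 and SLC46A3 kept the call whichever library was left out. SLC22A5 lost it without either caged library or 8 h replicate 2, and SLCO4C1 and SLC23A2 without caged replicate 1 or 8 h replicate 2. SLC27A1 lost it without caged replicate 2 or 8 h replicate 1. SLC22A5 was not called under cyclic loess offsets, nor were SLC22A5, SLCO4C1 and SLC27A1 with DESeq2. SLCO4C1 was not called without a low-count filter.

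Of the 33 genes of the inorganic ion and pH families at 8 h, 3 were called higher (9.09%) and 8 lower (24.2%), with a median log2 fold change of -0.094. At 4 h 3 were higher (9.09%) and 1 lower (3.03%). Of all features, 14.9% were higher and 13.2% lower at 8 h, and 6.16% and 3.56% at 4 h, so the 4 h shares lie near the background. Of the 7 sodium-proton exchangers (SLC9), 3 fell, among them SLC9A9 and SLC9A7, which act in endosomes and the trans-Golgi network. SLC9A9 (chromosome 3, 143265222 to 143848531) had 13.4 and 14.2 CPM in the caged libraries, 13.0 and 12.8 CPM at 4 h and 8.30 and 7.84 CPM at 8 h. Caged and 4 h libraries were close and both 8 h libraries were well below them, and it fell by 0.77 ± 0.11 (adjusted p = 0.00238). SLC9A7 fell by 0.59 ± 0.11 (adjusted p = 0.00561). SLC8A1 (chromosome 2, 40097270 to 40611053), which encodes the sodium-calcium exchanger NCX1, had 5.30 and 4.93 CPM in the caged libraries, 3.22 and 3.58 CPM at 4 h and 2.07 and 2.31 CPM at 8 h, with groups in the order caged, 4 h, 8 h and no overlap, and fell by 1.22 ± 0.20 (adjusted p = 0.00365). The sulfate carrier gene SLC26A2 fell by 0.51 ± 0.086 (adjusted p = 0.00413).

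Potassium-chloride cotransporters went both ways at 8 h: SLC12A4 rose and SLC12A7, which encodes KCC4, had 33.5 and 32.0 CPM in the caged libraries, 32.1 and 33.7 CPM at 4 h and 26.8 and 26.1 CPM at 8 h. Its caged and 4 h libraries overlapped and the 8 h ones lay below. It fell by 0.31 ± 0.075 (adjusted p = 0.0176). SLC12A4 was the more abundant of the pair per length, at 20.8 CPM per kb beside 5.13 CPM per kb. The other 2 calls in the higher direction were SLC20A2 and SLC4A1AP. SLC4A1AP, which encodes an adaptor protein and not a carrier, had 48.7 and 55.1 CPM in the caged libraries, 49.3 and 61.6 CPM at 4 h and 82.1 and 85.1 CPM at 8 h, with both 8 h libraries far above the other 4, and rose by 0.69 ± 0.11 (adjusted p = 0.00313). SLC8A1, SLC9A9, SLC9A7, SLC26A2, SLC12A4 and SLC4A1AP kept the call whichever library was left out. SLC12A7 lost it without any 1 of the 4 libraries compared, and SLC20A2 without caged replicate 2 or either 8 h library. SLC12A7 was not called under cyclic loess offsets, nor was SLC12A7 with DESeq2. SLC20A2 was not called with library totals alone.

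Of the 26 carriers of metal ions and haem at 8 h, 1 was called higher (3.85%) and 8 lower (30.8%), with a median log2 fold change of -0.20. At 4 h 1 was higher (3.85%) and 2 lower (7.69%). Of all features, 14.9% were higher and 13.2% lower at 8 h, and 6.16% and 3.56% at 4 h, so the 4 h shares lie near the background. Of the 11 members of the importer family SLC39, 4 fell and 1 rose, and of the 7 of the exporter family SLC30, 2 fell and 0 rose (edgeR; 0 higher also with DESeq2, limma-voom and at an unadjusted p under 0.05). SLC30A4 had 15.3 and 15.0 CPM in the caged libraries, 10.7 and 10.1 CPM at 4 h and 8.78 and 9.94 CPM at 8 h. The caged libraries lay well above the other 4, and it fell by 0.70 ± 0.11 (adjusted p = 0.00387) at 8 h. SLC30A3, which loads zinc into vesicles, had 10.9 and 10.3 CPM in the caged libraries, 7.76 and 8.35 CPM at 4 h and 6.15 and 5.95 CPM at 8 h, highest in caged cells, lowest at 8 h and without overlap, and fell by 0.81 ± 0.13 (adjusted p = 0.00334). On the import side SLC39A10 had 28.9 and 32.6 CPM in the caged libraries, 23.5 and 20.9 CPM at 4 h and 17.3 and 21.5 CPM at 8 h, with the caged libraries highest and those at 4 h and 8 h overlapping. It fell by 0.67 ± 0.12 (adjusted p = 0.00574), and SLC39A11 fell by 0.67 ± 0.12 (adjusted p = 0.00535). SLC39A8 and SLC39A14, which also carry iron and manganese, stood at -0.33 ± 0.072 (adjusted p = 0.0127) and -0.27 ± 0.073 (adjusted p = 0.0272). SLC39A9 went the other way: it had 94.2 and 95.8 CPM in the caged libraries, 113 and 119 CPM at 4 h and 114 and 115 CPM at 8 h, every library after light above the caged ones, and rose by 0.27 ± 0.057 (adjusted p = 0.0104). SLC11A2, the divalent metal carrier DMT1, fell by 0.30 ± 0.089 (adjusted p = 0.0376). SLC30A3, SLC30A4, SLC39A10 and SLC39A11 kept the call whichever library was left out. SLC39A8 lost it without caged replicate 2 or 8 h replicate 1, and SLC39A14 without either caged library or 8 h replicate 2. SLC39A9 lost it without caged replicate 1, and SLC11A2 without either caged library, either 4 h library or 8 h replicate 2. SLC39A14 and SLC11A2 were not called with DESeq2, nor was SLC39A9 with library totals alone. SLC39A9 and SLC11A2 were not called under cyclic loess offsets, nor was SLC11A2 without a low-count filter.

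Of the 14 carriers of nucleosides, nucleotide sugars and the secretory pathway at 8 h, 1 was called higher (7.14%) and 7 lower (50%), with a median log2 fold change of -0.23. At 4 h 1 was higher (7.14%) and 1 lower (7.14%). Of all features, 14.9% were higher and 13.2% lower at 8 h, and 6.16% and 3.56% at 4 h. The equilibrative nucleoside carrier SLC29A2 (chromosome 11, 66362521 to 66372214), known as ENT2, had 39.2 and 33.8 CPM in the caged libraries, 26.7 and 27.2 CPM at 4 h and 21.8 and 19.3 CPM at 8 h, in the order caged, 4 h, 8 h without overlap. It fell by 0.83 ± 0.10 (adjusted p = 0.00128), and its relative SLC29A1, ENT1, fell by 0.32 ± 0.067 (adjusted p = 0.0103). SLC35A1, which brings CMP-sialic acid into the Golgi, fell by 0.48 ± 0.13 (adjusted p = 0.0263), while SLC35A4 of the same family rose at both times. Of the 4 sugar-phosphate carriers (SLC37), 3 fell, among them SLC37A3 (-0.35 ± 0.075, adjusted p = 0.0110) and the glucose-6-phosphate carrier of the endoplasmic reticulum SLC37A4 (-0.22 ± 0.065, adjusted p = 0.0346). SLC33A1, which brings acetyl-CoA into the endoplasmic reticulum, fell by 0.28 ± 0.09 (adjusted p = 0.0494). SLC29A2 and SLC35A4 kept the call whichever library was left out. SLC29A1 lost it without caged replicate 1 or 8 h replicate 2, and SLC35A1 without caged replicate 2 or 8 h replicate 2. SLC37A3 lost it without caged replicate 1 or 8 h replicate 1, and SLC37A4 without any 1 of the 6 libraries. SLC33A1 lost it without any 1 of the 4 libraries compared. SLC35A1 and SLC33A1 were not called under cyclic loess offsets, nor were SLC35A1, SLC37A4 and SLC33A1 with DESeq2. SLC37A4 and SLC33A1 were not called with the replicate block, nor was SLC33A1 with RLE size factors. SLC33A1 was not called without a low-count filter.

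Of the 29 genes of the amino acid and peptide families at 8 h, not counting the 10 left out by name, 2 were called higher and 3 lower. Their median log2 fold change was -0.23, and SLC7A6OS, which is not a carrier, is among the 29. The shares of 6.90% higher and 10.3% lower stand beside 14.9% and 13.2% of all features. At 4 h edgeR, DESeq2 and limma-voom called none (2 higher and 4 lower at an unadjusted p under 0.05 in edgeR). SLC38A7, a glutamine carrier of lysosomes, had 17.0 and 15.3 CPM in the caged libraries, 23.0 and 24.6 CPM at 4 h and 27.5 and 19.7 CPM at 8 h, with every library after light above the caged ones and the 8 h pair the widest apart, and rose by 0.55 ± 0.15 (adjusted p = 0.0277). The GABA carrier gene SLC6A13 was scarce, with 1.75 and 1.55 CPM in the caged libraries, 2.37 and 2.39 CPM at 4 h and 3.32 and 3.29 CPM at 8 h, in the order caged, 4 h, 8 h, and rose by 0.998 ± 0.24 (adjusted p = 0.0161). In the other direction, SLC43A1, which moves branched-chain and aromatic amino acids, had 30.8 and 27.3 CPM in the caged libraries, 27.7 and 26.9 CPM at 4 h and 23.4 and 19.9 CPM at 8 h, with the 8 h libraries lowest, and fell by 0.42 ± 0.10 (adjusted p = 0.0169). The glycine carrier gene SLC6A9 fell by 0.52 ± 0.16 (adjusted p = 0.0429) and SLC7A6 fell by 0.30 ± 0.073 (adjusted p = 0.0177). SLC7A6 overlaps SLC7A6OS on the other strand, which stood at 0.13 ± 0.071 (adjusted p = 0.204), and the estimates of both were not whole in all 6 libraries, so reads of the pair cannot be told apart with certainty. SLC38A7 lost the call without either caged library or 8 h replicate 1, and SLC6A13 without any 1 of the 4 libraries compared. SLC43A1 lost it without caged replicate 1 or 8 h replicate 2, and SLC6A9 without caged replicate 1, either 4 h library or either 8 h library. SLC7A6 lost it without either caged library or 8 h replicate 2. SLC38A7 was not called with library totals alone, nor were SLC38A7 and SLC6A9 without a low-count filter. SLC6A13 and SLC6A9 were not called with DESeq2, nor were SLC43A1 and SLC6A9 under cyclic loess offsets. SLC6A9 was not called with limma-voom, nor was SLC6A9 with the replicate block.

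Between 4 h and 8 h after light, 6 members (3.47%) fell and 1 (0.578%) rose, beside 1.21% lower and 2.05% higher of all features tested and 1.51% and 2.41% of the protein-coding genes of at least 1 CPM. The members' median step was -0.14, and -0.018 for those protein-coding genes. SLC2A12 fell furthest, by 1.24 ± 0.21 (adjusted p = 0.0295), and SLC9A9 fell by 0.68 ± 0.11 (adjusted p = 0.0290). The ascorbate carrier gene SLC23A2 had 64.4 and 60.9 CPM in the caged libraries, 68.7 and 67.0 CPM at 4 h and 52.8 and 49.2 CPM at 8 h: the 4 h libraries were the highest and the 8 h libraries the lowest. It fell by 0.41 ± 0.069 (adjusted p = 0.0293), after 0.12 ± 0.067 (adjusted p = 0.311) at 4 h against caged cells. SLC44A2 had 68.6 and 65.9 CPM in the caged libraries, 70.1 and 67.4 CPM at 4 h and 51.0 and 53.6 CPM at 8 h, with caged and 4 h libraries overlapping and 8 h below both, and fell by 0.39 ± 0.066 (adjusted p = 0.0293). SLC44A1 had 36.5 and 39.1 CPM in the caged libraries, 34.6 and 35.6 CPM at 4 h and 27.9 and 26.4 CPM at 8 h and fell by 0.37 ± 0.078 (adjusted p = 0.0451), and SLC26A2 had 25.2 and 24.0 CPM in the caged libraries, 23.0 and 22.5 CPM at 4 h and 17.8 and 16.6 CPM at 8 h and fell by 0.40 ± 0.087 (adjusted p = 0.0483). The member that rose was SLC4A1AP, at 0.59 ± 0.11 (adjusted p = 0.0337). None of these 7 had been called at 4 h, where their values ran from -0.42 to 0.12.

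SLC2A12, SLC9A9, SLC23A2, SLC44A2 and SLC4A1AP lost the call without any 1 of the 4 libraries compared, and SLC26A2 and SLC44A1 without any 1 of the 6 libraries. SLC2A12, SLC9A9, SLC23A2, SLC26A2, SLC44A2, SLC44A1 and SLC4A1AP were not called without a low-count filter, nor were SLC9A9, SLC26A2, SLC44A2 and SLC44A1 with the replicate block. SLC26A2 and SLC44A1 were not called under cyclic loess offsets, nor were SLC26A2 and SLC44A1 with DESeq2. SLC2A12 and SLC9A9 were not called with DESeq2 either, as it gave them no adjusted p. SLC26A2 and SLC44A1 were not called with limma-voom. Without either 4 h or either 8 h library edgeR called 0 members in either direction, with 20 to 32 lower and 2 to 4 higher at an unadjusted p under 0.05; without either caged library 4 were lower and 1 higher. Each of these fits also called smaller shares of all features, in both directions, than the fit with all 6 libraries. The 3 comparisons share their libraries, so their values for a gene are not independent.

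The summed level of all 173 members was 5187 and 5156 CPM in the caged libraries, 5164 and 5242 CPM at 4 h and 4937 and 4879 CPM at 8 h. Both 8 h libraries were below the other 4 in this sum. The carriers of carboxylates, lipids, vitamins and organic ions summed to 958 and 949 CPM in the caged libraries, 922 and 943 CPM at 4 h and 851 and 818 CPM at 8 h, and the sugar and polyol families to 331 and 319 CPM in the caged libraries, 314 and 309 CPM at 4 h and 292 and 279 CPM at 8 h. In both, the 8 h libraries were the lowest, as they were in the sums of the amino acid and nucleoside groups. The inorganic ion and pH families did not fall in this sum, with 1100 and 1070 CPM in the caged libraries. They had 1149 and 1192 CPM at 4 h and 1124 and 1113 CPM at 8 h, so both 8 h libraries lay above both caged ones. That order depends on SLC4A1AP, which is counted in the sum and is not a carrier. Without it the 8 h sums lie between the caged sums. The metal carriers, which hold the most abundant members per length, summed to 1489 and 1527 CPM in the caged libraries, 1496 and 1496 CPM at 4 h and 1432 and 1468 CPM at 8 h, with both 8 h libraries below the other 4.

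The related carriers left out by the rule are given beside the share of all features, 6.16% higher and 3.56% lower at 4 h and 14.9% and 13.2% at 8 h. Of 42 expressed SLC25 carriers of the inner mitochondrial membrane, 1 was higher and 2 lower at 4 h, and 2 higher and 11 lower at 8 h, with a median of -0.10 at 8 h. These counts are 2.38% and 4.76% at 4 h, near those shares, and 4.76% and 26.2% at 8 h. Of the 10 amino acid transporters, 5 were higher and 0 lower at 4 h and 2 higher and 2 lower at 8 h, with medians of 0.28 and 0.15 (edgeR; at 4 h 0 lower also with DESeq2, limma-voom and at an unadjusted p under 0.05). Their summed level was 1396 and 1428 CPM in the caged libraries, 1708 and 1702 CPM at 4 h and 1619.6 and 1594 CPM at 8 h. Whether these counts differ from the members' was not tested.

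Genes that set the gradients or act with the carriers were followed from lists, beside 6.16% higher and 3.56% lower of all features at 4 h and 14.9% and 13.2% at 8 h. Of 17 tested genes of the vacuolar proton pump, 1 was higher and 0 lower at 4 h and 9 were higher (52.9%) and 0 lower at 8 h, the count at 4 h being 5.88% and near the share of all features, with a median of 0.23 at 8 h (edgeR; 0 lower also with DESeq2 and limma-voom, and 0 at 4 h and 1 at 8 h at an unadjusted p under 0.05). ATP6V1E1 stood at 0.43 ± 0.049 (adjusted p = 0.00106), ATP6V1C1 at 0.50 ± 0.084 (adjusted p = 0.00431), ATP6V0C at 0.48 ± 0.082 (adjusted p = 0.00474) and ATP6V0D1 at 0.31 ± 0.055 (adjusted p = 0.00539). Of 8 tested genes of the sodium pump, 0 were higher and 2 lower at 8 h, the subunit gene ATP1B2 (-1.05 ± 0.17, adjusted p = 0.00400) and the regulator FXYD6 (-0.49 ± 0.13, adjusted p = 0.0251). In edgeR, DESeq2 and limma-voom none was called higher at 8 h or called at all at 4 h, with 0 higher at 8 h and 1 in each direction at 4 h at an unadjusted p under 0.05. Of 18 partners and regulators of carriers, 1 was higher and 1 lower at 4 h and 2 were higher and 4 lower at 8 h. These are 5.56% each way at 4 h and 11.1% and 22.2% at 8 h, not far from the shares of all features. WNK1, the kinase upstream of the SLC12 cotransporters, rose by 0.35 ± 0.054 (adjusted p = 0.00836) at 4 h and by 0.24 ± 0.054 (adjusted p = 0.0146) by 8 h, and the 4 h call was lost without caged replicate 2 or 4 h replicate 2. STK39, the kinase between WNK1 and those carriers, stood at -0.39 ± 0.073 (adjusted p = 0.00659) at 8 h. TXNIP and ARRDC4, arrestin-like proteins that lower glucose uptake, stood at -0.48 ± 0.11 (adjusted p = 0.0129) and -0.41 ± 0.09 (adjusted p = 0.0125).

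Of 10 tested metal-responsive genes, 3 were higher (30%) and 1 lower (10%) at 8 h, beside 14.9% and 13.2% of all features. MTF1, the zinc-sensing transcription factor, had 32.6 and 35.3 CPM in the caged libraries, 44.8 and 40.9 CPM at 4 h and 48.2 and 55.3 CPM at 8 h and stood at 0.61 ± 0.091 (adjusted p = 0.00284). TFRC, the transferrin receptor gene, was at 0.28 ± 0.063 (adjusted p = 0.0146), the ferritin gene FTH1 at 0.20 ± 0.053 (adjusted p = 0.0255) and ACO1, an iron-regulatory protein, at -0.27 ± 0.065 (adjusted p = 0.0173); FTH1 turned to -0.084 under cyclic loess offsets. Of 22 tested ABC transporters, the ATP-driven class of membrane carriers, 0 were higher and 4 lower at 8 h, with a median of -0.15. The 18.2% lower is near the 13.2% of all features and the 16.3% of protein-coding genes of at least 1 CPM. At 4 h edgeR, DESeq2 and limma-voom called none, and at 8 h none higher (0 higher at 8 h, and 1 higher and 3 lower at 4 h, at an unadjusted p under 0.05). ABCG1, a sterol exporter, stood at -1.10 ± 0.29 (adjusted p = 0.0229), ABCA3 at -0.33 ± 0.082 (adjusted p = 0.0183), ABCC1 at -0.32 ± 0.09 (adjusted p = 0.0301) and ABCA5 at -0.38 ± 0.12 (adjusted p = 0.0419). ATP6V1E1, ATP6V1C1, ATP6V0C, ATP6V0D1, ATP1B2, STK39 and MTF1 kept the call whichever library was left out. FXYD6 and ABCA5 lost it without any 1 of the 4 libraries compared, and WNK1 and TXNIP without caged replicate 2 or 8 h replicate 1. ARRDC4, FTH1 and ABCG1 lost it without either caged library or 8 h replicate 1, and TFRC and ACO1 without caged replicate 1 or 8 h replicate 2. ABCA3 and ABCC1 lost it without caged replicate 1 or either 8 h library. FXYD6, WNK1, ARRDC4, TFRC, FTH1 and ABCA5 were not called under cyclic loess offsets, nor were FXYD6, ARRDC4 and ABCA5 with DESeq2. FXYD6, WNK1, FTH1 and ABCA5 were not called without a low-count filter, nor were WNK1, TFRC and FTH1 with library totals alone. ABCA5 was not called with the replicate block.

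Gene length and level of the members are given for each direction. At 8 h those called lower spanned a median of 42.7 kb of genome and stood at a median of 17.8 CPM, and those not called 38.4 kb and 9.61 CPM. The 8 called higher spanned 36.9 kb and stood at 72.3 CPM. Among protein-coding genes of at least 1 CPM, the medians were 52.8 kb and 21.5 CPM for those lower and 27.7 kb and 88.2 CPM for those higher, so length and level moved with direction there. Their part in the members' counts was not tested, apart from the cyclic loess offsets for level. In 73 of the 173 members the estimate was not whole within 0.01 in at least 4 libraries, 22 of the 56 called lower and 5 of the 8 called higher among them, as happens where reads are shared with other transcripts. Among protein-coding genes of at least 1 CPM it was so in 6386 of 13194, with 796 of 2155 called lower and 1308 of 2263 called higher.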

How the data were processed

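mRNA of 6 HEK293T libraries in 3 groups of 2 was analysed. The authors deposited expected counts per gene (estimates, not normalised). The tools named per the submitters' processing notes are Salmon 1.1.0, R 3.6.1 and DESeq2, with build GRCh38; transcript annotation and strand setting: not given in the sources used here. Of 60184 features, 5 are plasmid sequences, which entered neither library sizes nor tests. Symbols were matched by Ensembl ID, and gene types, exon lengths and coordinates come from GENCODE 29 (GRCh38).

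Estimated counts were rounded, filtered with filterByExpr (minimum count 10, minimum total 15), scaled by TMM and tested by quasi-likelihood in edgeR 4.0.16 under R 4.3.3 (legacy=TRUE, all 6 libraries, no covariates); the SE is the log2 fold change divided by the square root of F. Adjusted p-values are Benjamini-Hochberg over all 17449 features of a comparison. The common biological coefficient of variation was 6.34%. Within groups, counts of replicates lay further apart than Poisson noise gives (chi-square over degrees of freedom 3.65 to 4.31). The procedure was tested on simulated data. Alternatives were RLE, upper-quartile, library-total and cyclic loess scaling, DESeq2 1.42.0, limma-voom (limma 3.58.1), other filters, a replicate block and each library left out, the remaining library of its group being assumed to vary like the others.

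Named members are, for each comparison, the 8 largest called changes each way (5 CPM or more, no overlap), the 2 most abundant and 2 of smallest p in each role group, and the smallest p in each family of 4 or more; up to 4 called genes were named per list. The rule named 46 members, and the others in the text were named after their values were seen. Members, lists and role groups were chosen with earlier results of these data known. Values of 4 single members are not reported here.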

Additional observations from a re-analysis of the deposited data

How the results depend on the processing

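RLE, upper-quartile factors, limma-voom and the filter of 1 CPM in 2 libraries kept each count of called members within 1.5 times of the reported 6 higher and 10 lower at 4 h, 8 and 56 at 8 h, and 1 and 6 in the step from 4 h to 8 h. Other settings moved a count further, and each time the share of all features called moved in the same direction. The cause was not tested. At 4 h the lower count was 5 under cyclic loess offsets, 3 with DESeq2, 3 without a filter and 4 with a replicate block, and the higher count was 2 without a filter. At 8 h the lower count was 36 under cyclic loess offsets and 28 with DESeq2, and the higher count 4 with library totals alone. In the step the lower count was 2 with DESeq2, 2 with a replicate block and 0 without a filter, and the higher count 0 without a filter (edgeR; 33 and 5 at an unadjusted p under 0.05). DESeq2 gave no adjusted p for 15, 17 and 83 members in the 3 comparisons. Over the fits that leave out 1 library, the counts ran from 0 to 7 higher and 0 to 10 lower at 4 h, 4 to 8 and 26 to 48 at 8 h, and 0 to 1 and 0 to 4 in the step. No called member changed direction under any of these settings; FTH1 of the metal list turned to -0.084 at 8 h under cyclic loess offsets.

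The titles give replicate numbers, but nothing says that a number marks a shared culture or day, and the differences between replicates 1 and 2 correlated at -0.017, 0.061 and -0.076 between the groups across features. With the replicate block 5 members were higher and 4 lower at 4 h, 8 and 51 at 8 h, and 1 and 2 in the step. A minimum mean of 0.5 CPM would give 187 members and of 5 CPM 122. With 2 libraries a group, the spread rests on 3 residual degrees of freedom, and 1 library decides many single calls.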
